A study of Mus musculus with 7 samples.

Results

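The genes examined here encode the glucocorticoid receptor (Nr3c1), the chaperone that holds it in a hormone-binding state (Hsp90aa1), 2 immunophilin co-chaperones of that complex (Fkbp5 and Fkbp4) and an enzyme that regenerates active glucocorticoid inside cells (Hsd11b1). Their members are glucocorticoid receptor binding sites: all summits of the 7 deposited lists that lay within 100 kb of an approximate mm9 start point of each gene, joined into 1 site where neighbouring summits were at most 200 bp apart. The 5 windows held 31 sites, of 35316 sites in the whole series. A library with 1 summit or more in a site was said to hold it.

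The receptor was mapped by chromatin immunoprecipitation and sequencing with an in-house antibody, in fibroblasts grown from mouse embryos taken at 14 to 17 days of gestation and used between passages 4 and 11. The groups were Klf15-/- cells with dexamethasone (2 libraries), wild-type cells with dexamethasone (2), Klf15-/- cells with ethanol vehicle (2) and wild-type cells with vehicle (1 library, pooled because material was scarce). Klf15 encodes a zinc-finger transcription factor, dexamethasone is a synthetic glucocorticoid, and each exposure lasted 1 h. Nothing in the labels tells separate cultures from repeat libraries of one culture, and spread within a group may therefore be technical only.

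As background, the unliganded receptor sits in the cytoplasm in a complex with HSP90. FKBP51, the product of Fkbp5, lowers the affinity of this complex for hormone, whereas FKBP52, the product of Fkbp4, favours hormone binding and transport of the receptor to the nucleus. Fkbp5 is itself a widely used glucocorticoid-induced target gene, so that the receptor induces its own inhibitor. Binding of the receptor to distal sites within and around Fkbp5 is well known in other cell types.

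The lists were 19999 and 20169 summits long in Klf15-/- cells with dexamethasone and 15628 and 16927 in wild-type cells with dexamethasone. They were 7325 and 8088 summits long in Klf15-/- cells with vehicle and 10034 in wild-type cells with vehicle. Read depth is unknown from these files. The first Klf15-/- vehicle library stood apart, with 414 pairs of summits closer than 200 bp, where no other library had more than 4. The scores are the authors' own, on a scale that is not stated. They are given below as percentiles, from 0 to 100, among all summits of the same list, and a percentile in a short list and one in a long list do not show a change.

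The promoter sequences of the co-chaperone pair are shown because theirs were the windows whose share of summits did not overlap between treatments at this width, although no summit lay at either start point. They are RefSeq sequences on GRCm38.p6, from 250 bases before the gene start to 50 bases from it onwards, in lower case with the first base of the gene in capitals. Their positions, chr17:28486100-28486399 and chr6:128438607-128438906, both on the minus strand, belong to another build than the summits and cannot be set beside them.
Fkbp5 promoter: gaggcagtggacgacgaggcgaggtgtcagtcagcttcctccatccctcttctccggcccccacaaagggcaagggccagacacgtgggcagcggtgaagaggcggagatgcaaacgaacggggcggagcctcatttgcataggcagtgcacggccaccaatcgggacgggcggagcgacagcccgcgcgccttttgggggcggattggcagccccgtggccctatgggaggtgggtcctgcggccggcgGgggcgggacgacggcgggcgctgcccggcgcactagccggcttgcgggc
Fkbp4 promoter: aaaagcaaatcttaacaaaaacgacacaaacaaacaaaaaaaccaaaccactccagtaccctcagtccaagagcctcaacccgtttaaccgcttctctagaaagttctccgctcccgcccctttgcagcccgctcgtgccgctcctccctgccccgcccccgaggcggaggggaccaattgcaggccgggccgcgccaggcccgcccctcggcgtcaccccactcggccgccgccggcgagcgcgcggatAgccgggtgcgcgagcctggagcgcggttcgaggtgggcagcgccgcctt
Of the 5 genes, 3 had a promoter in the RefSeq table (Fkbp5, Fkbp4 and Hsd11b1). Both strands were searched for the full glucocorticoid response element (the half-site AGAACA and its inverted repeat with a spacer of 3 bases), for a relaxed form with the half-site GNACA and the same spacer, which the full element also matches, and for the half-site AGAACA alone, which the full element contains. None of the 3 promoters held any of them. Among all 32851 promoters of the table, 0.00913% held the full element, 0.475% the relaxed form and 18.97% the half-site. The absence says only that these letters are not in these windows. The promoters were GC-rich in Fkbp5 (70.7% G or C) and Fkbp4 (65.3%) and less so in Hsd11b1 (54.7%). The sequence under the summits themselves is not analysed here.

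Fkbp5 had the densest window of the 5, and 14 of its 16 receptor sites had no vehicle summit, against 54.2% of sites over the whole series. The other windows held fewer sites, 4 each for Nr3c1, Fkbp4 and Hsd11b1 and 3 for Hsp90aa1. In the Fkbp5 window, dexamethasone lists held 12 and 14 summits in Klf15-/- cells and 9 and 9 in wild-type cells. Vehicle lists held 1 and 1 in Klf15-/- cells and 0 in wild-type cells. Tiles of the same width laid along all chromosomes had a median of 1 site, and 0.806% of 12909 tiles held 16 or more. The gene is transcribed towards lower coordinates, so that sites below its start point are on its downstream side. There were 11 sites below the point and 5 above it. The nearest site was 7.01 kb from the approximate point, and none lay within 5 kb of it.

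**Figure D1:**
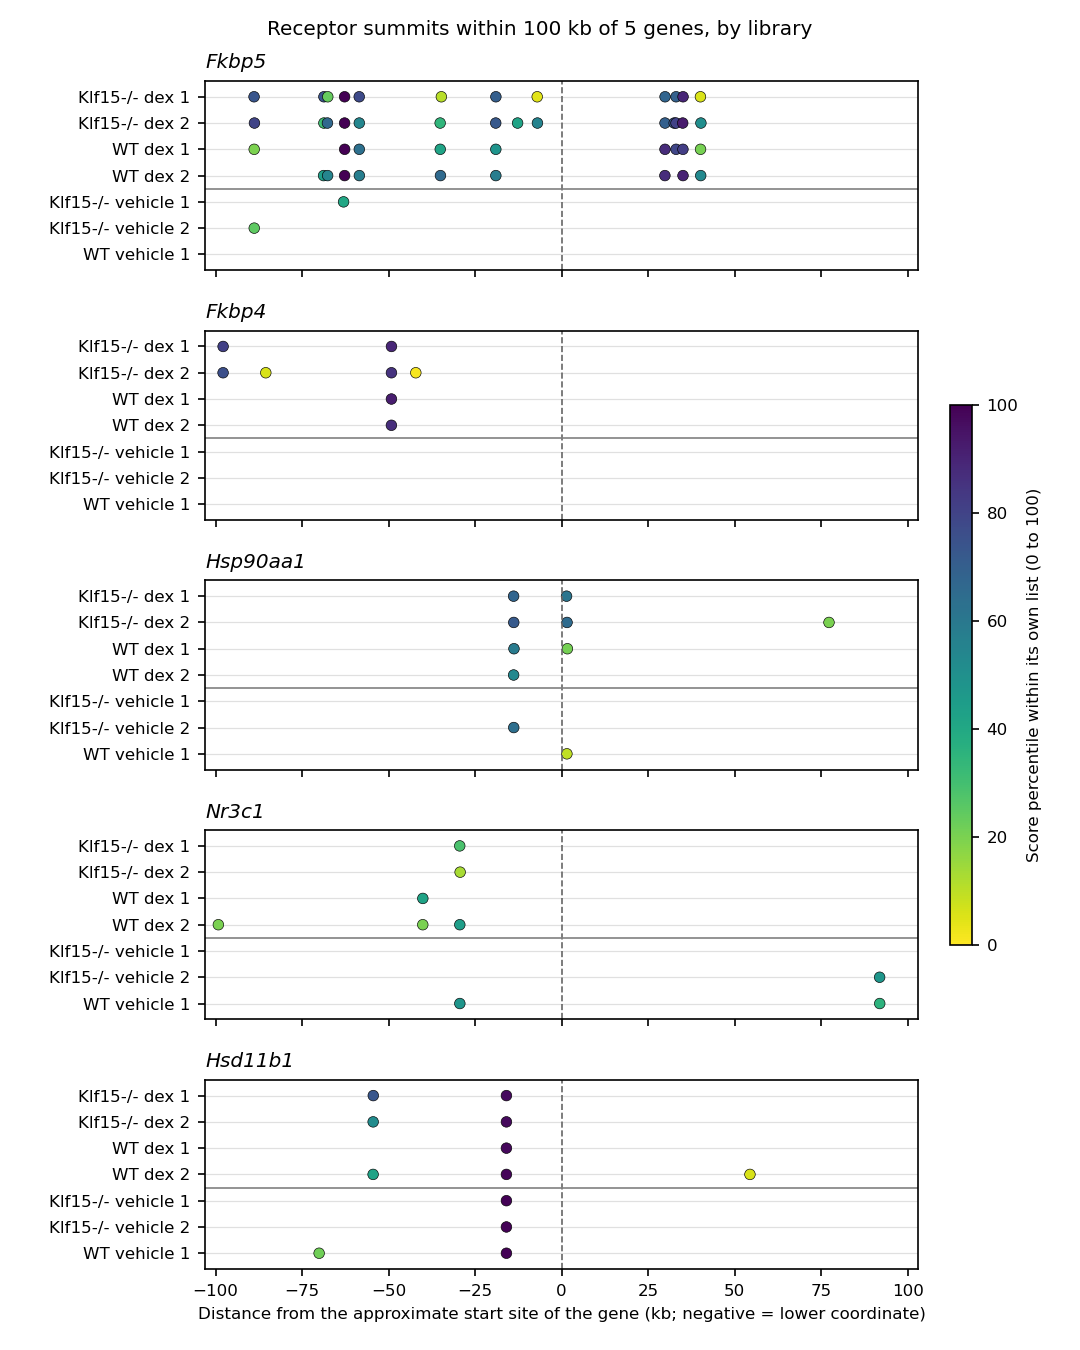
Every receptor summit (points) in the windows of the 5 genes, by distance in kb from the approximate start site (dashed line) and by library, with dexamethasone libraries above the grey line and vehicle libraries below it. Colour gives the score percentile within the library's own list, and the Fkbp5 window shows 9 to 14 summits per dexamethasone list against 0 to 1 per vehicle list.

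The leading Fkbp5 site, the one with the highest percentile in the list where it ranked lowest, lay on chromosome 17 from 28557285 to 28557305 (mm9), 62.7 kb below the start point. It stood at percentiles 99.9 and 99.8 in Klf15-/- cells with dexamethasone and 99.8 and 99.9 in wild-type cells with dexamethasone, and was absent from the 3 vehicle lists. Its scores were 145.7 and 128.8 in the Klf15-/- dexamethasone lists and 136.9 and 150.01 in the wild-type ones, whose median scores lay between 9.73 and 9.98. The 4 summits fell within 20 bp of each other, and 3.89% of the 2774 sites with the same list membership were as tight. By its lowest percentile, the value by which it was chosen in its window, it ranked 3 of these 2774 sites. The most similar sites in percentile over the 4 lists were on chromosome 16 (25059479 to 25059496 and 52094947 to 52094959) and chromosome 11 (43805736 to 43805781), differing by at most 0.0591, 0.0896 and 0.124 percentile points. The first Klf15-/- vehicle library had a summit 296 bp from the leading site, at 28556989 and percentile 40.3. With a linkage distance of 500 bp this summit joined the leading site, which then counted as held by 1 vehicle library. That is the library with many closely spaced summits.

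Another 5 sites of the Fkbp5 window were held by all 4 dexamethasone lists and by no vehicle list. The highest of them lay 35.05 kb above the start point (28655002 to 28655097), at percentiles 89.3 and 92.7 in Klf15-/- cells and 81.7 and 90.3 in wild-type cells. A neighbour 29.9 kb above the point (28649853 to 28649902) stood at percentiles 67.8 and 69.9 in Klf15-/- cells and 87.7 and 87.2 in wild-type cells. Here the genotypes did not overlap, with wild type higher, but lists of unequal length show no change by rank. How many sites of the whole series separate in this way was not counted. With 2 libraries against 2, such a separation has an exact permutation p of 0.333, so it calls no difference between genotypes. On the downstream side, the site at 28561513 to 28561553 lay 58.5 kb below the point, close to the leading site, at percentiles 77.7 and 54.1 in Klf15-/- cells and 63.6 and 57.6 in wild-type cells. The site 19.01 kb below the point (28600965 to 28601007) stood at 70.1 and 72.5 in Klf15-/- cells and at 48.3 and 58.1 in wild-type cells, again without overlap but with Klf15-/- higher. The site farthest above the point, at 40.2 kb (28660125 to 28660259), ranked low, with 5.58 and 51.1 in Klf15-/- cells and 20.6 and 53.1 in wild-type cells. These 6 sites spanned percentiles 5.58 to 99.9. The leading site ranked above the other 5 in every dexamethasone list, which follows in part from how it was chosen.

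The remaining Fkbp5 sites were held by fewer lists. A further 5 sites were held by 3 of the 4 dexamethasone lists. Of these, the sites 68.7 kb and 67.6 kb below the point (28551204 to 28551310 and 28552335 to 28552423) were missed by the first wild-type dexamethasone list alone. The site 33.1 kb above the point (28653070 to 28653080) was missed by the second wild-type list alone, and the site 35.1 kb below it (28584903 to 28584990) by the first Klf15-/- list alone. That list had a summit 0.26 kb away, at 28585250 and percentile 10.7, and with a linkage distance of 500 bp it joined the site, which all 4 dexamethasone lists then held. The site 88.8 kb below the point (28531118 to 28531231) had percentiles of 73.4 and 80.0 in Klf15-/- cells with dexamethasone and 19.6 in the first wild-type list, and was also held by the second Klf15-/- vehicle library at percentile 24.95. Besides the vehicle summit at 28556989, 3 sites were held by 1 dexamethasone library each, all of them Klf15-/- libraries. The site 7.01 kb below the point was the only one held by both Klf15-/- dexamethasone lists and neither wild-type list. It stood at percentiles 4.54 and 55.3 and ranked 2083 of the 2312 such sites in the series.

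**Figure D2:**
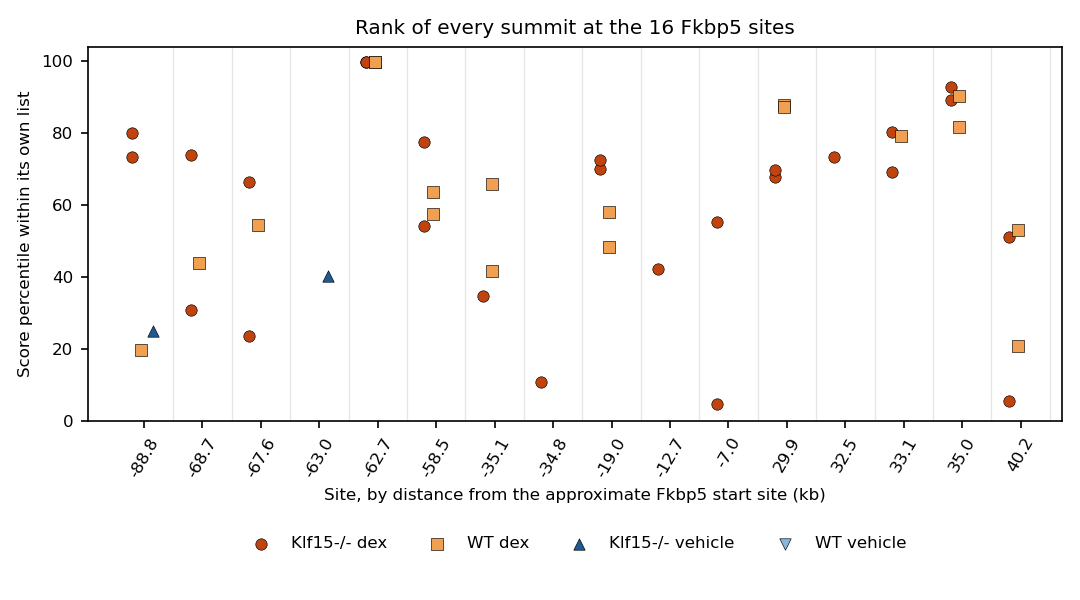
Score percentile within its own list (vertical axis) of each summit at the 16 Fkbp5 sites, ordered by distance in kb from the approximate start site. Points are single libraries, and a missing point means no summit. All 4 dexamethasone lists place the site at -62.7 kb above percentile 99.8, and the wild-type vehicle library has no point.

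Fkbp4 had a sparser window with the same kind of leading site. This gene was represented by 4 sites, all below the start point and none held by a vehicle list. The leading site lay on chromosome 6 from 128340812 to 128340830 (mm9), 49.2 kb from the point, and was held by all 4 dexamethasone lists. It stood at percentiles 89.4 and 85.3 in Klf15-/- cells and 92.1 and 86.7 in wild-type cells, so the genotypes overlapped. Its summits lay within 18 bp of each other, against a median of 75 bp over the sites of the series with this list membership, among which it ranked 330 of 2774. A second Fkbp4 site, 97.8 kb from the point and near the edge of the window (128292167 to 128292178), was held by both Klf15-/- dexamethasone lists, at percentiles 80.9 and 76.0, and by neither wild-type list. The nearest wild-type dexamethasone summit was 40.4 kb away. This site ranked 37 of 2312 Klf15-/- only sites, whose lowest percentile had a median of 24.6. The other 2 sites were held by the second Klf15-/- dexamethasone list alone, at percentiles 5.94 and 1.36.

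Hsp90aa1 encodes the inducible cytosolic HSP90. By the approximate start points, which may be some kb off, it was the only gene of the 5 with a site within 5 kb. That site lay on chromosome 12 from 111941431 to 111941673 (mm9), 1.55 kb above the point. It was held by both Klf15-/- dexamethasone lists at percentiles 61.2 and 65.5, by the first wild-type dexamethasone list at 21.0, by neither Klf15-/- vehicle list, and by the wild-type vehicle list at 9.48. Its summits were spread over 242 bp, the widest site of the 31. The median was 108 bp over the 1186 sites of the series held by 3 dexamethasone and 1 vehicle library. With a linkage distance of 100 bp the site was split, and the window then held 4 sites. The leading Hsp90aa1 site lay 13.8 kb below the point, from 111926127 to 111926237. Its percentiles were 67.7 and 72.0 in Klf15-/- cells with dexamethasone, 58.7 and 53.2 in wild-type cells with dexamethasone and 64.0 in the second Klf15-/- vehicle library. Both Klf15-/- dexamethasone lists placed this site higher than both wild-type ones, which again shows no change by rank. How many sites of the series separate so was not counted, and 2 libraries against 2 cannot call a genotype difference. The other vehicle lists lacked it, so that its place outside the dexamethasone-only sites rests on that single vehicle library. The last site, 77.3 kb above the point, was held by the second Klf15-/- dexamethasone list alone.

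Nr3c1, the gene of the receptor itself, had no site held by all 4 dexamethasone lists. All its summits ranked below the median of their lists, with percentiles from 13.3 to 47.9. Its leading site lay on chromosome 18 from 39620560 to 39620678 (mm9), 29.4 kb below the start point. It stood at percentiles 28.6 and 13.3 in Klf15-/- cells with dexamethasone and at 44.2 in the second wild-type dexamethasone list. The first wild-type dexamethasone list and both Klf15-/- vehicle lists lacked it, and the wild-type vehicle list held it at 47.9. A site 40.1 kb below the point (39609878 to 39609892) was the single wild-type only site of the 5 windows, at percentiles 41.8 and 20.2. The nearest Klf15-/- dexamethasone summit was 10.7 kb away, and the site ranked 557 of 1034 wild-type only sites. A site 91.9 kb above the point (39741912 to 39741941) was held by the second Klf15-/- vehicle list at percentile 47.3 and the wild-type vehicle list at 35.6, and by no dexamethasone list. The last site was a summit of the second wild-type dexamethasone list, 99.2 kb from the point and just inside the window. The first summit outside lay at 100.8 kb, in the second Klf15-/- dexamethasone list at percentile 7.07.

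Hsd11b1, which encodes 11β-hydroxysteroid dehydrogenase type 1, had the only site of the 31 that all 7 libraries held, against 6.22% of sites over the whole series. It lay on chromosome 1 from 195054053 to 195054057 (mm9), 15.9 kb below the start point, the gene being transcribed in that direction. It stood at percentiles 97.2 and 97.4 in Klf15-/- cells with dexamethasone and 97.8 and 98.8 in wild-type cells with dexamethasone. Both wild-type dexamethasone lists placed it higher than both Klf15-/- ones, which shows no change by rank. The number of sites in the series that separate so was not counted, and 2 libraries against 2 cannot call a genotype difference. With vehicle the site stood at 99.4 and 99.2 in Klf15-/- cells and 99.6 in wild-type cells. Every list placed it in its top 3%, and it ranked 48 of the 2195 sites held by all 7 libraries. Its 7 summits fell within 4 bp of each other, against a median of 148 bp over those 2195 sites, of which 15 were as tight. Whether this signal depends on the receptor was not tested, since the control library is not given. A second site, 54.4 kb below the point (195015526 to 195015576), was held by both Klf15-/- dexamethasone lists at percentiles 73.3 and 51.6 and by the second wild-type dexamethasone list at 42.1, with no vehicle summit. The other 2 sites were single summits, of the second wild-type dexamethasone list at percentile 5.86 and of the wild-type vehicle list at 21.7.

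**Figure D3:**
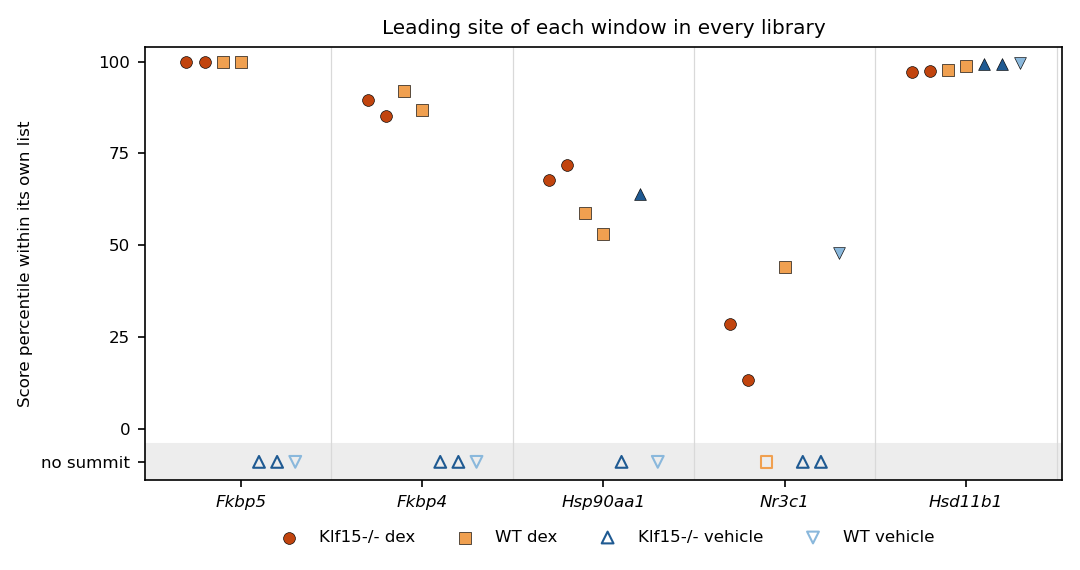
Score percentile within its own list (vertical axis, 0 to 100) of the leading site of each gene's window in every library. Open symbols in the grey band are libraries without a summit, and 3 vehicle libraries lie there for Fkbp5 and Fkbp4 and none for Hsd11b1.

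The question of the dexamethasone comparison was which of these sites appear with the ligand. In Klf15-/- cells, 18 sites of the windows were held by both dexamethasone libraries and 13 of them had no summit of any vehicle library, against 43.2% of such sites over the whole series. In wild-type cells, both dexamethasone libraries held 11 sites and 9 of these had no vehicle summit, against 38.5% over the whole series. Fkbp5 supplied 10 of the 13 and 7 of the 9. Fkbp4 supplied 2 and 1, Hsd11b1 1 and 0, Nr3c1 0 and 1, and Hsp90aa1 neither. Of the 9 sites held by all 4 dexamethasone lists, 7 had no vehicle summit, against 30.9% over the whole series. The 2 with a vehicle summit, against 69.1% over the whole series, were the leading sites of Hsp90aa1 and Hsd11b1. The vehicle lists were shorter, so the lack of a vehicle summit does not show that the receptor was not there.

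Per list length, the summits of the Fkbp5 window were more frequent with dexamethasone in every library. They made up 6.0 and 6.94 per 10000 summits in Klf15-/- cells with dexamethasone, 5.76 and 5.32 in wild-type cells with dexamethasone, 1.37 and 1.24 in Klf15-/- cells with vehicle and 0 in wild-type cells with vehicle. The mean was 6.0 ± 0.686 with dexamethasone (SD, n = 4) and 0.867 ± 0.754 with vehicle (SD, n = 3), a difference of 5.14 that exceeded the spread within either treatment (two-sided exact permutation over libraries, p = 0.0571). That is the smallest p that 4 libraries against 3 can give, so no window can pass 0.05 in this test and no adjustment over genes was made. The Fkbp4 window had 1.05 ± 0.646 per 10000 with dexamethasone (SD, n = 4) and 0 in all 3 vehicle lists (exact permutation p = 0.0571). In windows of 200 kb on each side the Fkbp4 treatments were no longer at the extreme arrangement (difference 1.62, exact permutation p = 0.114). The other 3 windows overlapped between treatments at 100 kb. The Hsp90aa1 window had 1.09 ± 0.388 with dexamethasone and 0.744 ± 0.656 with vehicle (exact permutation p = 0.40). The Nr3c1 window had 0.852 ± 0.617 with dexamethasone and 1.08 ± 1.01 with vehicle (exact permutation p = 0.686). The Hsd11b1 window had 1.10 ± 0.478 with dexamethasone and 1.53 ± 0.405 with vehicle (exact permutation p = 0.286). In windows of 50 kb on each side, the Hsd11b1 share was lower with dexamethasone (difference -0.643, exact permutation p = 0.0571). That window held only the leading site, with 1 summit in each of the 7 lists. The value therefore follows from list length alone, since every dexamethasone list was longer than every vehicle list. The direction of the Hsp90aa1, Nr3c1 and Hsd11b1 differences turned under some alternatives. Each rests on 0 to 3 summits per list.

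**Figure D4:**
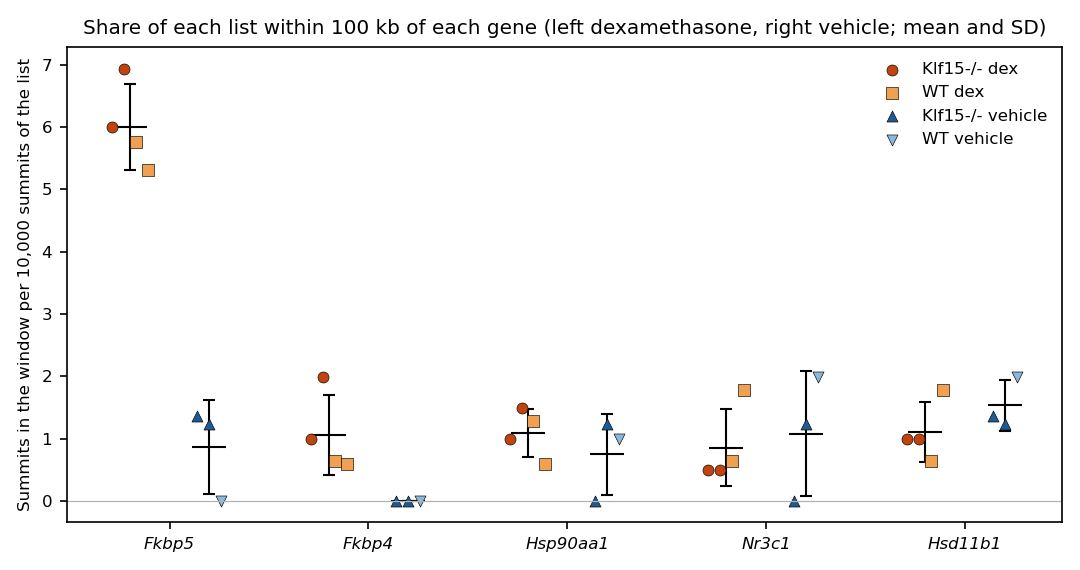
Summits in each gene's window per 10,000 summits of the list (vertical axis) for each library (symbols), with dexamethasone to the left of vehicle, and the mean and SD of the 4 dexamethasone and the 3 vehicle libraries in black. In these windows of 100 kb on each side, the treatments are separated without overlap for Fkbp5 and Fkbp4 and overlap for the other 3 genes.

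The genotype comparison asked whether loss of Klf15 goes with another set of dexamethasone sites at these genes. Of the 15 dexamethasone-only sites of either genotype in the 5 windows, 7 were held by all 4 dexamethasone lists, against 33.4% over the whole series. A further 2 were Klf15-/- only, against 27.8% over the whole series, and 1 was wild-type only, against 12.5%. The rest were held by both libraries of one genotype and by 1 of the other. In the Fkbp5 window, 6 sites were shared by all 4 lists, 1 was Klf15-/- only and none was wild-type only. With 2 libraries against 2, the exact permutation test cannot go below p = 0.333, so it cannot call a difference between genotypes. Per 10000 summits of the list, the Fkbp5 window averaged 6.47 in Klf15-/- cells and 5.54 in wild-type cells with dexamethasone (exact permutation p = 0.333). Chromosome 17 as a whole held 3.63% and 3.52% of the summits in Klf15-/- lists and 4.16% and 4.11% in wild-type lists with dexamethasone, a difference in the other direction, and its part in the window's values was not tested.

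These counts depend on single libraries where both replicates are required. The Klf15-/- only sites were 5 without the second and 3 without the first wild-type dexamethasone library, and leaving out a Klf15-/- dexamethasone library gave 7 (the first) or 3 (the second). The wild-type only sites were 3 without the first wild-type and 2 without the second Klf15-/- dexamethasone library. The wild-type dexamethasone-only sites were 14 without the first wild-type dexamethasone library, since a single list then sufficed. Without the first Klf15-/- vehicle library, the dexamethasone-only counts were 13 in Klf15-/- and 9 in wild-type cells, as with it. Without the wild-type vehicle library they were 15 and 9, and without the second Klf15-/- vehicle library 15 and 10. Lists of equal length gave 1 Klf15-/- only site, in the Fkbp4 window, and no wild-type only site.

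In Klf15-/- cells with dexamethasone, 18 of 25 sites of the windows held by either library were held by both (72.0%), against 58.9% over the whole series. In wild-type cells with dexamethasone, it was 11 of 20 (55.0%), against 59.3%. Sites held by 1 library only numbered 10 of 31, against 38.7% over the whole series. Of the 8 sites with a vehicle summit, 3 had no dexamethasone summit, against 27.7% over the whole series. These 3 were the vehicle summit beside the leading Fkbp5 site, the Nr3c1 site 91.9 kb above its point and the Hsd11b1 summit 70.1 kb below its point.

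The median percentile of the summits in the Fkbp5 window was 69.7 and 68.2 in the Klf15-/- dexamethasone lists and 63.6 and 58.1 in the wild-type ones, where all summits of a list have a median of 50 by construction. Of these summits, 8 of 12 and 11 of 14 stood above percentile 50 in Klf15-/- cells, and 5 of 9 and 8 of 9 in wild-type cells. No Nr3c1 summit did so, in any list. Sites were not assigned to exons, introns or neighbouring genes, since no mm9 annotation was used. In the RefSeq gene table of GRCm38, the closest protein-coding neighbours of Fkbp5 are Tulp1 on the downstream and Armc12 on the upstream side. The summits nearest the edges of the windows lay 88.9 kb (inside) and 154.9 kb (outside) from the Fkbp5 point, 97.8 and 108.3 kb from that of Fkbp4, 77.3 and 110.1 kb from that of Hsp90aa1 and 70.1 and 112.8 kb from that of Hsd11b1.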

How the data were processed

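Per the submitters' processing notes, the authors used CASAVA 1.4, Bowtie2 and SAMtools on build mm9. Which peak caller, control and threshold were used is not given in the sources used here. The authors deposited 1 list per library, which holds 1 bp summits with a score, on a scale that the sources do not state. Per the labels' protocols, cells were fixed in 1% formaldehyde for 5 min and reads were 50 bases.

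Summits of all 7 lists were linked genome-wide at a distance of at most 200 bp, and a site was taken where any summit lay within 100 kb of the point. The points, in Mb, were 28.62 on chromosome 17 (Fkbp5), 128.39 on chromosome 6 (Fkbp4), 111.94 on chromosome 12 (Hsp90aa1), 39.65 on chromosome 18 (Nr3c1) and 195.07 on chromosome 1 (Hsd11b1). A score was ranked only within its own list. The 5 genes, their points and the rules were chosen with earlier results of these data known. The leading site of a window is the one held by all 4 dexamethasone lists with the highest percentile in the list where it ranks lowest, or failing that the site held by most libraries. Dexamethasone-only means both dexamethasone libraries of a genotype and no summit of any vehicle library. Other sites were named where at least 2 libraries held them, and single-library sites were summarised, except a few named after their values were seen. No count model was used, and sites were counted without a test. Window shares were compared by exact permutation of the libraries. The joining and classing of sites was tested on simulated lists. Sequences came from the RefSeq tables. Alternatives were other linkage distances, windows, score filters, vehicle filters and each library left out. The work was done in Python 3.11.15 with pandas 2.3.3, numpy 2.4.6 and scipy 1.17.1, and plots were drawn with matplotlib 3.10.9.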

Additional observations from a re-analysis of the deposited data

How the results depend on the processing

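Of 603 values recomputed under alternatives, 506 kept their direction or stayed within 1.5 times the count, 91 moved and 6 reversed. Windows of 50 kb gave 17 sites, 7 Klf15-/- dexamethasone-only sites and 1 Klf15-/- only site, and windows of 200 kb gave 53 sites. Summits above the median score gave 19 sites, 5 wild-type dexamethasone-only, 4 Klf15-/- only and 0 wild-type only sites. Lists of equal length gave 20 sites, 7 Klf15-/- and 5 wild-type dexamethasone-only sites, 4 shared, 1 Klf15-/- only and 0 wild-type only. With 1 dexamethasone library of a genotype sufficient, the counts were 20 Klf15-/- and 15 wild-type dexamethasone-only, 8 Klf15-/- only and 3 wild-type only. Another 12 were held by at least 1 dexamethasone library of each genotype, which is a looser rule than all 4 lists. Fewer summits, smaller windows or looser rules change these counts by construction.

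Leaving out each library in turn gave 13 to 19 Klf15-/- and 9 to 14 wild-type dexamethasone-only sites. Of these, 7 to 10 were held by all remaining dexamethasone lists, 2 to 7 were Klf15-/- only and 1 to 3 wild-type only. The same omissions gave differences per 10000 summits of -0.763 to 0.234 for Nr3c1 and -0.0270 to 0.591 for Hsp90aa1. For Hsd11b1 they ranged from -0.654 (without the second wild-type dexamethasone library) to -0.200 (without the wild-type vehicle library). The Nr3c1 difference was 0.37 in windows of 50 kb and 0.0234 in windows of 200 kb, the Hsp90aa1 difference was -0.0670 in windows of 200 kb, and the Hsd11b1 difference was -1.48 in windows of 200 kb and 0.341 in lists of equal length. The cause was not tested. The Fkbp5 and Fkbp4 differences stayed above 0 under every alternative run, from 3.69 to 8.78 for Fkbp5 and from 0.681 to 2.05 for Fkbp4.

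The titles do not say whether replicate numbers mark a shared culture or day. In the groups with 2 libraries, those of the same number did not deviate together (correlations of 0.000361, 0.00495 and 0.0025 over 35316 sites). The wild-type vehicle library had no partner for this comparison. Whether a culture or day was shared was not tested. With the replicate block, the differences were 5.04 for Fkbp5, 1.05 for Fkbp4, 0.222 for Hsp90aa1, -0.264 for Nr3c1 and -0.357 for Hsd11b1, with an exact permutation p of 0.111 for Fkbp5, the smallest the block allows. Read depth is unknown, so whether a missing summit reflects no binding or no detection was not tested.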
